A study of Arabidopsis thaliana with 8 samples.

Results

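The pseudo-response regulator (PRR) genes of the Arabidopsis thaliana circadian clock were examined for peaks of CONSTANS (CO), a transcription regulator of photoperiodic flowering, in chromatin immunoprecipitation followed by sequencing (ChIP-seq). The 5 genes were taken by locus identifier from 27444 nuclear protein-coding genes: PRR9 (AT2G46790), PRR7 (AT5G02810), PRR5 (AT5G24470), PRR3 (AT5G60100) and TOC1 (AT5G61380). A peak was assigned to a gene by its summit, the position of highest signal, which had to fall inside the gene or no more than 3000 bp from either end. That rule took 5 of the 3214 peaks in the authors' filtered list and 0 of the 380 peaks in the control list.

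The chromatin came from whole seedlings, 7 days after germination, in long days, fixed for 20 min in 1% formaldehyde and for 10 min in 1 mM DSG, which links proteins to each other. The 35S:CO line overexpresses CO from a viral promoter that is active in most tissues, whereas the CO gene itself is known to act mainly in leaf veins, so a peak in this line describes occupancy at high and widespread CO. The co-10 line, a co mutant, was the control for the antibody. An anti-CO antibody was used on 2 immunoprecipitates of each line, and 2 inputs of each line had no antibody, which makes 8 samples in 4 groups. The peaks were deposited as 1 list per genotype, named as made from both replicates, so no value has a replicate check and no test between genotypes was possible. Intervals below are exact 95% Poisson intervals of fragment counts. They cover counting error only, with the background held fixed.

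PRR proteins carry a receiver-like domain and, at their C-terminal end, a CCT domain, which CO also has. They are transcriptional repressors of the morning clock genes CCA1 and LHY, and they accumulate one after another through the day, from PRR9 in the morning to TOC1 in the evening. PRR proteins are also known to repress CYCLING DOF FACTOR (CDF) genes, whose products hold down CO transcription, and to stabilise the CO protein.

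Of the 5 PRR genes, 3 had a filtered summit: PRR5 with 3 peaks, PRR9 with 1 and TOC1 with 1. PRR7 and PRR3 had none. By the same rule a filtered summit was found at 19.2% of all nuclear protein-coding genes and at 21.1% of the 8951 genes within the length range of the 5. The 35S:CO list before filtering gave the same 5 peaks (background 19.3%), so the filter removed nothing at these genes. None of the 5 summits lay inside a PRR gene. All strengths below are the authors' fold enrichment of the summit over its background, as deposited for each peak. Fragments at the summit and the background were recovered from the deposited fold enrichment and p-value of each peak.

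**Figure D1:**
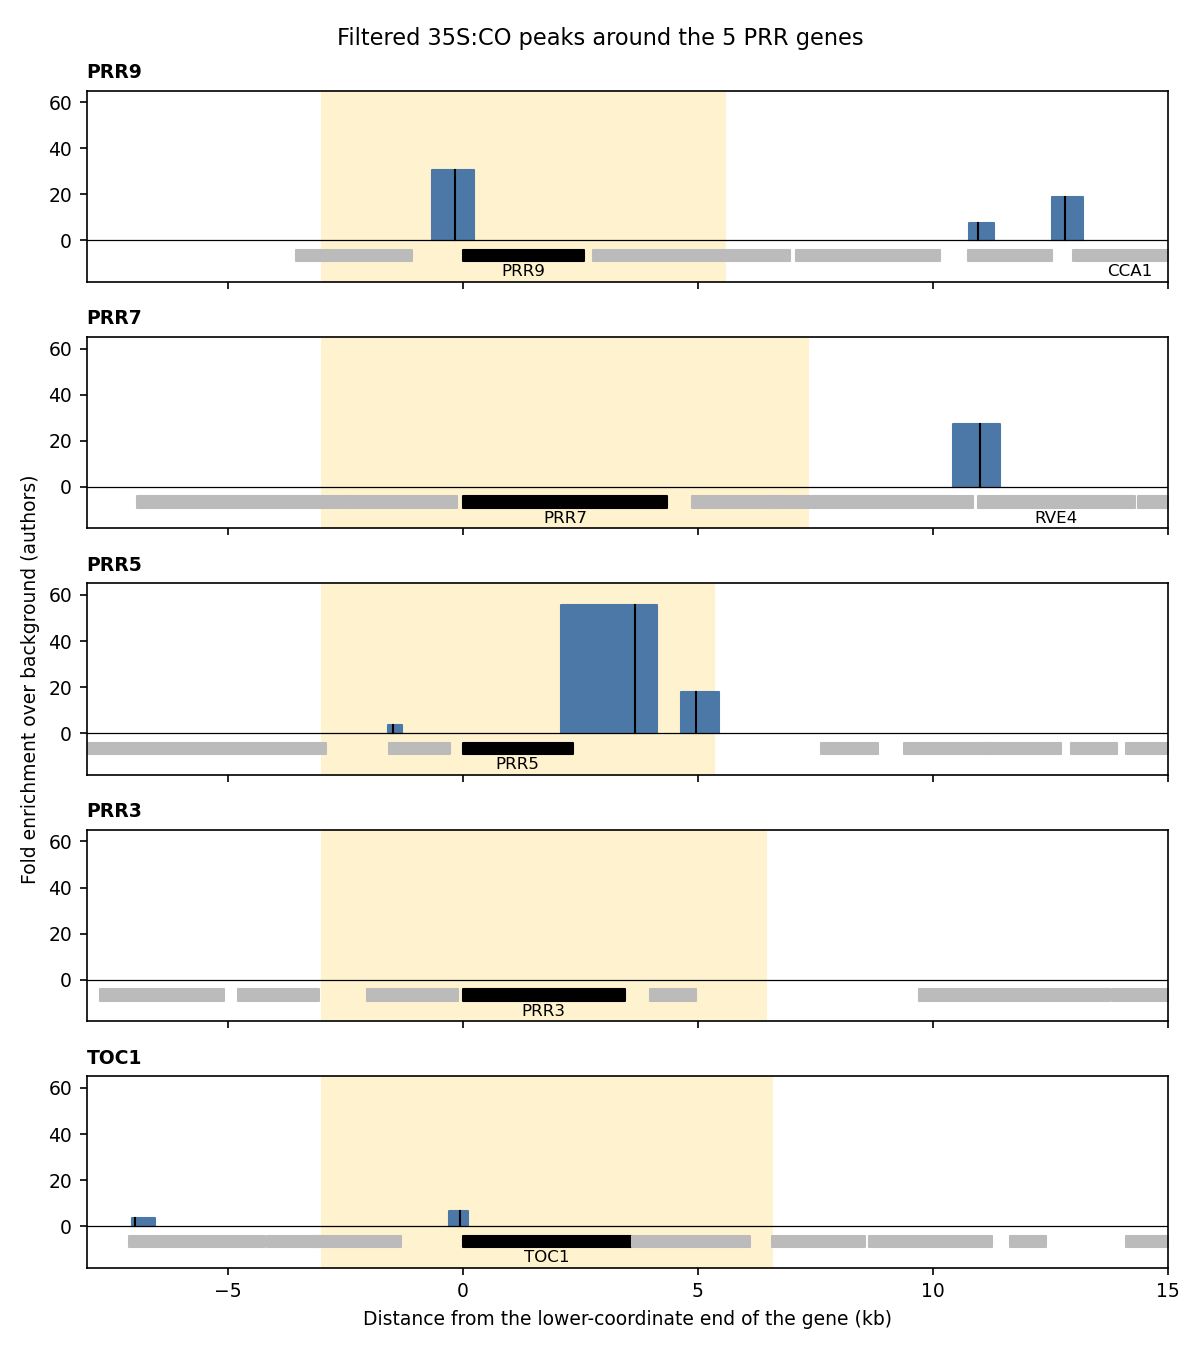
Filtered 35S:CO peaks around each PRR gene, with distance from the lower-coordinate end of the gene in kb on the x axis and the authors' fold enrichment on the y axis. Blue bars span each peak, the black line is its summit, black boxes are the named PRR genes, grey boxes are other protein-coding genes, and the shaded band is the gene with 3000 bp on either side. PRR5 has 3 peaks in its band, up to 55.5, PRR9 and TOC1 have 1 each, at 30.6 and 6.81, and the bands of PRR7 and PRR3 hold none.

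PRR5 encodes an afternoon PRR that represses CCA1 and LHY. Its strongest peak spanned 8358302 to 8360345 on chromosome 5 (TAIR10), a width of 2044 bp, with the summit at 8359873 and a fold enrichment of 55.5. It rested on 306 fragments at the summit (272.7 to 342.3) over a background of 4.54. This was the highest fragment count and the highest −log10 p-value (432.3, deposited) of the 3210 nuclear filtered peaks. By fold enrichment the peak ranked 5. Only 7 of the 27444 genes, PRR5 included, had a filtered summit at least as strong within 3000 bp (0.0255%).

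The summit lay 1327 bp beyond the higher-coordinate end of PRR5, inside the annotated long non-coding RNA gene AT5G03755. No other protein-coding gene lay within 3000 bp of it. The peak itself reached further towards PRR5 and overlapped 245 bp of the gene. Its summit was off-centre, 1571 bp from the edge on the PRR5 side and 472 bp from the other. Of the 20 nuclear filtered peaks at least as wide, 7 had a summit as far off-centre.

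The second PRR5 peak lay on the same side, from 8360848 to 8361649, 802 bp wide. Its summit at 8361164 was 2618 bp from PRR5, with a fold enrichment of 17.9 from 85 fragments (67.9 to 105.1) over a background of 3.80. Its distance to AT5G24480, the next protein-coding gene, was 2667 bp, so the summit was almost midway between PRR5 and that gene. The gap between the strong PRR5 peaks was 502 bp, and their summits were 1291 bp apart. Both lay in a stretch of 5284 bp without protein-coding genes, wider than 91.7% of the 23810 such stretches (median 877 bp).

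The third PRR5 peak was on the other side of the gene, from 8354618 to 8354914, with its summit at 8354714 inside the neighbouring protein-coding gene AT5G24460, 1490 bp from PRR5 and 1411 bp from AT5G24450. Its fold enrichment was 3.64, from 23 fragments (14.6 to 34.5) over a background of 5.60. Its width of 297 bp was the smallest among nuclear filtered peaks, a value that 192 of them (5.98%) had. At least 3 filtered summits within 3000 bp were found at 0.663% of all genes.

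PRR9 encodes the PRR that peaks in the morning and is known to be induced by light. Its peak spanned 19231945 to 19232847 on chromosome 2, 903 bp wide, with the summit at 19232451. The summit lay 156 bp outside the lower-coordinate end of PRR9, and the peak overlapped 241 bp of the gene. The fold enrichment was 30.6, from 144 fragments (121.4 to 169.5) over a background of 3.73, which ranked 51 of 3210. The summit was 912 bp from AT2G46780 on its other side and 2923 bp from ZAT (AT2G46800) across PRR9. As strong a summit within 3000 bp was found at 107 genes (0.39%).

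TOC1 (TIMING OF CAB EXPRESSION 1, also called PRR1) encodes the evening member of the family. Its peak spanned 24674673 to 24675068 on chromosome 5, 396 bp wide, with the summit at 24674903. The summit was nearer to its gene than those of PRR9 and PRR5, at 60 bp outside the lower-coordinate end, and the peak overlapped 106 bp of TOC1. The fold enrichment was 6.81, from 29 fragments (19.4 to 41.6) over a background of 3.41. It ranked 1148 of 3210, and 8.23% of all genes had a summit as strong within 3000 bp. The other gene within 3000 bp was AT5G61370, at 1246 bp.

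PRR7, which acts with PRR9 in the response of the clock to temperature and light, had its nearest filtered summit at 6646 bp. That summit, with a fold enrichment of 27.2 from 135 fragments, lay inside RVE4 (AT5G02840), a MYB-like activator of evening clock genes. On the other side of PRR7 the nearest summit was 33050 bp away, at 3.17. PRR3, whose product protects TOC1 from degradation, had its nearest filtered summit at 25913 bp, at 3.24, and on the other side at 46312 bp. The 1587 filtered peaks with a background from 2.73 to 3.49 fragments had at least 10 fragments at the summit and a fold enrichment of at least 2.76. The background at PRR7 and PRR3 is not known from a peak list, so the weakest signal that would have been listed there cannot be given.

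**Figure D2:**
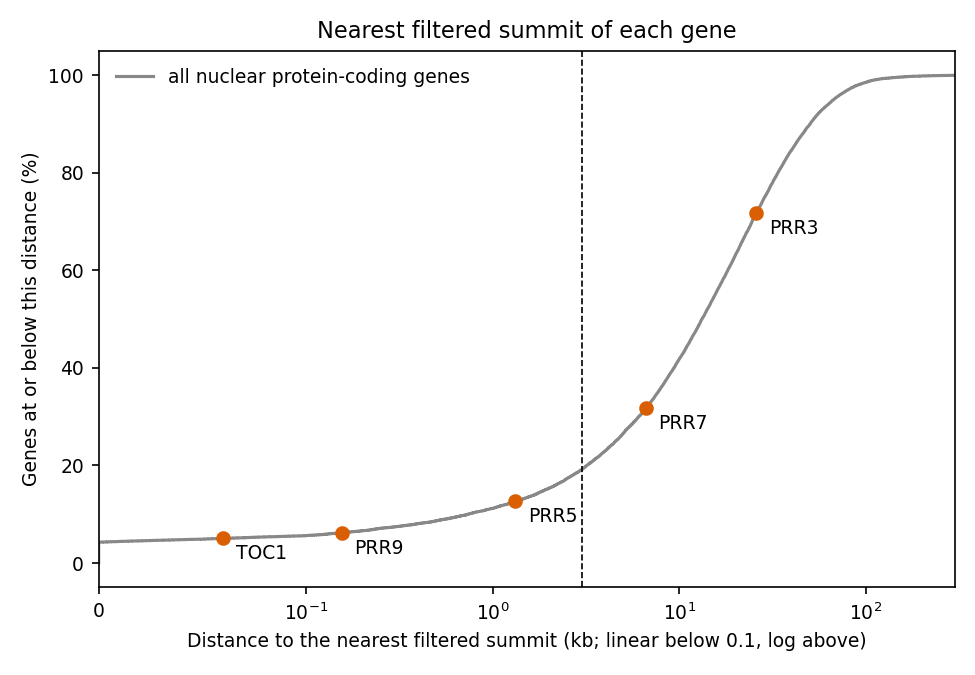
Share of nuclear protein-coding genes (y axis, %) whose nearest filtered summit lies at or below a distance (x axis, kb, linear below 0.1 and log above, 0 meaning inside the gene). The grey line is all 27444 genes, orange points are the PRR genes and the dashed line is 3000 bp; TOC1, PRR9 and PRR5 lie left of it, PRR7 at 6646 bp and PRR3 at 25913 bp to its right.

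The median distance from a gene to its nearest filtered summit was 13250 bp (interquartile range 4576 to 28720 bp). TOC1 (nearer summits at 5.04% of genes), PRR9 (6.20%) and PRR5 (12.6%) lay below the lower quartile of that distribution. PRR7 (31.7%) was between the lower quartile and the median, and PRR3 (71.7%) was beyond the median. Of the summits at PRR genes, the one nearest to the 3000 bp limit from inside was the second PRR5 summit, at 2618 bp, and the one nearest from outside was that at 6646 bp from PRR7.

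The peaks of the PRR genes differed in strength by more than counting error in most comparisons. The fold enrichment was 55.5 (49.4 to 62.0) at PRR5, 30.6 (25.9 to 36.0) at PRR9, 17.9 (14.3 to 22.1) at the second PRR5 peak, 6.81 (4.63 to 9.68) at TOC1 and 3.64 (2.36 to 5.38) at the third PRR5 peak. Only the intervals of the last pair overlapped. The strongest PRR5 peak was 1.81 times that of PRR9 and 8.15 times that of TOC1. Backgrounds ranged from 3.41 to 5.60 fragments, which is 1.11 to 1.82 times the median of nuclear filtered peaks, and the order of the fragment counts was the same as that of the fold enrichments.

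The 5 peaks had the same order in width as in strength. The PRR9 peak, at 903 bp, was within the interquartile range of width (868.8 to 1304 bp) of the 58 other peaks within 0.25 of it on the log2 scale of fold enrichment, whose median was 1084 bp. The TOC1 peak was narrow for its strength, with 7.97% of 615 peaks of like strength below its 396 bp (median 502 bp, interquartile range 442 to 580.5). The strong PRR5 peaks were also within the range of their peers, at 2044 against a median of 1852 bp among 8 peaks and at 802 against 783 bp among 153.

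**Figure D3:**
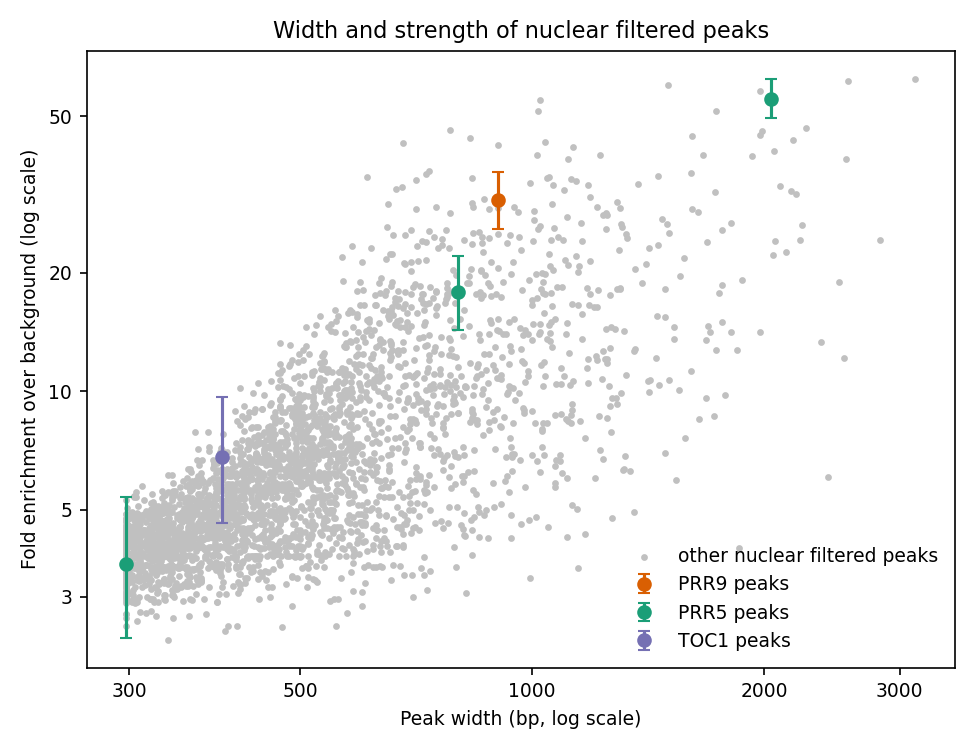
Peak width (x axis, bp, log scale) against fold enrichment (y axis, log scale) for the 3210 nuclear filtered peaks. Coloured points are the peaks of PRR9, PRR5 and TOC1 with 95% counting intervals, and grey points are all others; the 3 PRR5 peaks run from the narrowest width, 297 bp, to 2044 bp.

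The co-10 list was examined at the same genes for signal in the co mutant. No co-10 summit lay within 3000 bp of any of the 5 genes, and 0.619% of all genes had one. The nearest co-10 summit was 572460 bp from PRR7, 824869 bp from PRR5, and more than that from TOC1 (2451494 bp), PRR3 (1974502 bp) and PRR9 (4822949 bp). Over all genes the median distance to a co-10 summit was 657000 bp (interquartile range 232400 to 1728000 bp), so PRR7 and PRR5 were within the usual range. The median recovered background was lower in the co-10 list, and it was used to estimate relative depth, which is not given. The ratio of the co-10 to the 35S:CO background had a median of 0.53 (interquartile range 0.475 to 0.64) at 47 overlapping pairs of peaks, taken where neither background exceeded 10 fragments.

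The PRR peaks were therefore set at this estimated co-10 depth by multiplying fragments and background by that ratio and recomputing the Poisson p-value. The −log10 p-value became 230.7 at the strongest PRR5 peak, 91.7 at PRR9, 44.7 at the second PRR5 peak and 10.3 at TOC1. The lowest value among nuclear co-10 peaks was 4.28, and these recomputed values were all above it. The threshold of peak calling and the depth per sample are not given. Whether such peaks would have been listed in co-10 was therefore not tested. The third PRR5 peak came to 4.97. With the ratio of the median backgrounds of all nuclear peaks, 0.356, it fell under that lowest value, at 3.76, while TOC1 stayed above it at 7.47. Absence from co-10 can therefore not be read for the third PRR5 peak, and its meaning for the other PRR peaks was not tested. Loss of CO cannot be told apart from a lower yield of the co-10 immunoprecipitation in these pooled lists.

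**Figure D4:**
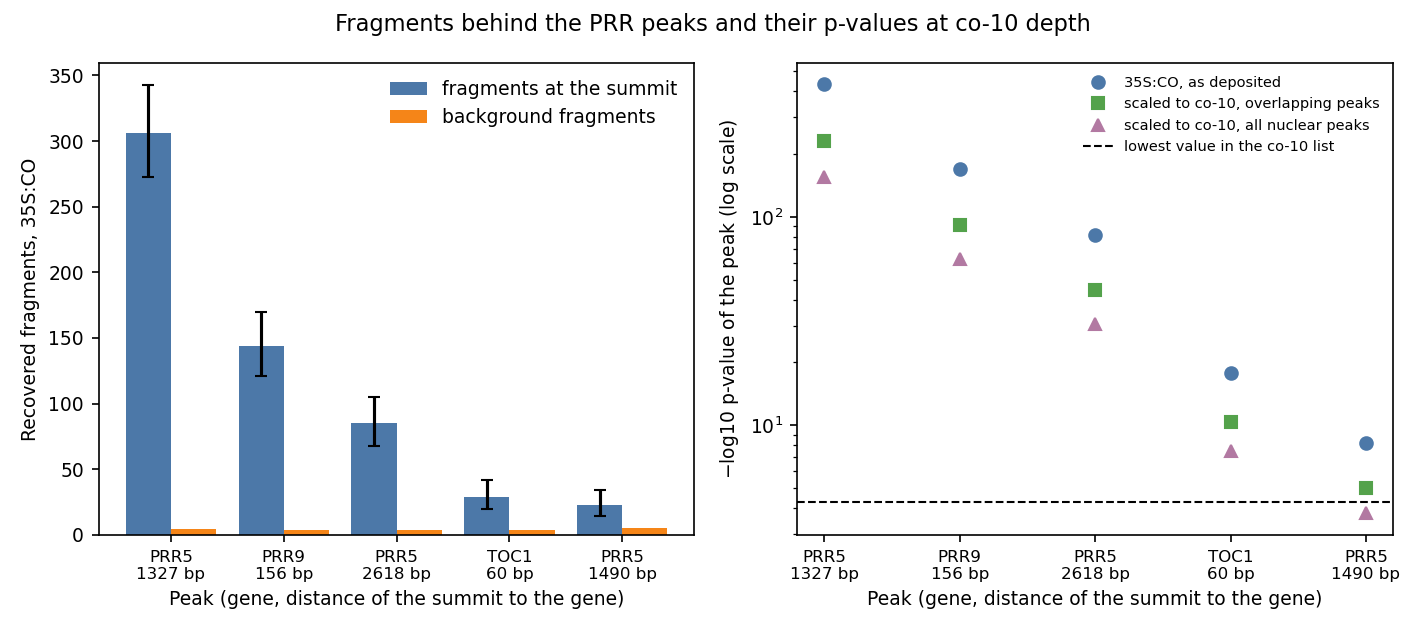
Left, recovered fragments at the summit (blue, with exact 95% Poisson intervals) and background fragments (orange) of the 5 PRR peaks in 35S:CO. Right, the −log10 p-value of each peak (log scale) as deposited and at 2 estimates of the co-10 depth, with the lowest nuclear co-10 value, 4.28, as a dashed line; the PRR5 peak at 1490 bp crosses it under the lower estimate.

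The other clock genes were counted by the same rule for comparison with the PRR genes, in 6 lists of 28 genes. A filtered summit was found at 24 of them, beside the 19.2% of all genes, and a co-10 summit at 0, beside 0.619% of all genes. Taking the strongest peak of each gene, the median fold enrichment over these 24 genes was 14.6, against 6.15 over the 5257 genes with a summit. PRR5 stood above all 28. PRR9 had 4 of them above it, and TOC1 had 21 above it and 3 with a summit below it. These places are not all resolved by counting. The counting interval of RVE8 overlapped that of PRR5, and those of RVE2 and LNK2 overlapped that of PRR9. The intervals of several genes above TOC1, and of all 3 below it, overlapped that of TOC1.

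Among the genes that the PRR proteins repress, LHY had its strongest summit at 29.4, 42 bp from the gene, and CCA1 at 19.0, 168 bp from the gene. All 8 REVEILLE genes, MYB-like relatives of CCA1, had a summit, beside 19.2% of all genes. The strongest were at RVE8 (43.6), RVE3 (42.2), RVE2 (34.3, 2500 bp from the gene) and RVE4 (27.2). RVE8 and its LNK coactivators are known to activate PRR5 and TOC1. All 4 LNK genes had a summit, beside 19.2% of all genes. Their fold enrichments ran from LNK2 at 34.9 through LNK3 at 17.2 and LNK4 at 13.5 to LNK1 at 7.42.

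Of the 4 listed genes of the evening complex, which represses PRR9 at night, 3 had a summit, beside 19.2% of all genes. These were ELF4 (9.89), LUX (8.60) and its homologue BOA (7.77), but not ELF3. Those summits were 129 bp from ELF4, 242 bp from LUX and 2984 bp from BOA, the last just inside the 3000 bp limit. In the group of GI and the F-box genes of the ZTL family, 2 of 4 genes had a summit, beside 19.2% of all genes. The ZTL protein targets TOC1 and PRR5 for degradation. GI (18.3, 2558 bp from the gene) and ZTL (7.60, 2829 bp) had summits, and FKF1 and LKP2 did not. Of 6 other regulators, 5 had one, beside 19.2% of all genes. LWD2 (27.8) and LWD1 (17.6), WD-repeat proteins known to promote PRR9 expression, were above TCP22 (8.24) and CHE (4.47).

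All 6 listed PRR targets outside the core clock had a summit, beside 19.2% of all genes. CDF2 (29.8), CDF3 (28.7), CDF5 (25.7) and CDF1 (17.6) were below PRR9 and above TOC1. The counting intervals of all of these but CDF1 overlapped that of PRR9. The rest of the list was below TOC1, at 6.23 and 4.67, with counting intervals that overlapped that of TOC1. At least 3 summits within 3000 bp, the number at PRR5, were also found at GI (3), CDF5 (3) and CDF3 (5), beside 0.663% of all genes.

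**Figure D5:**
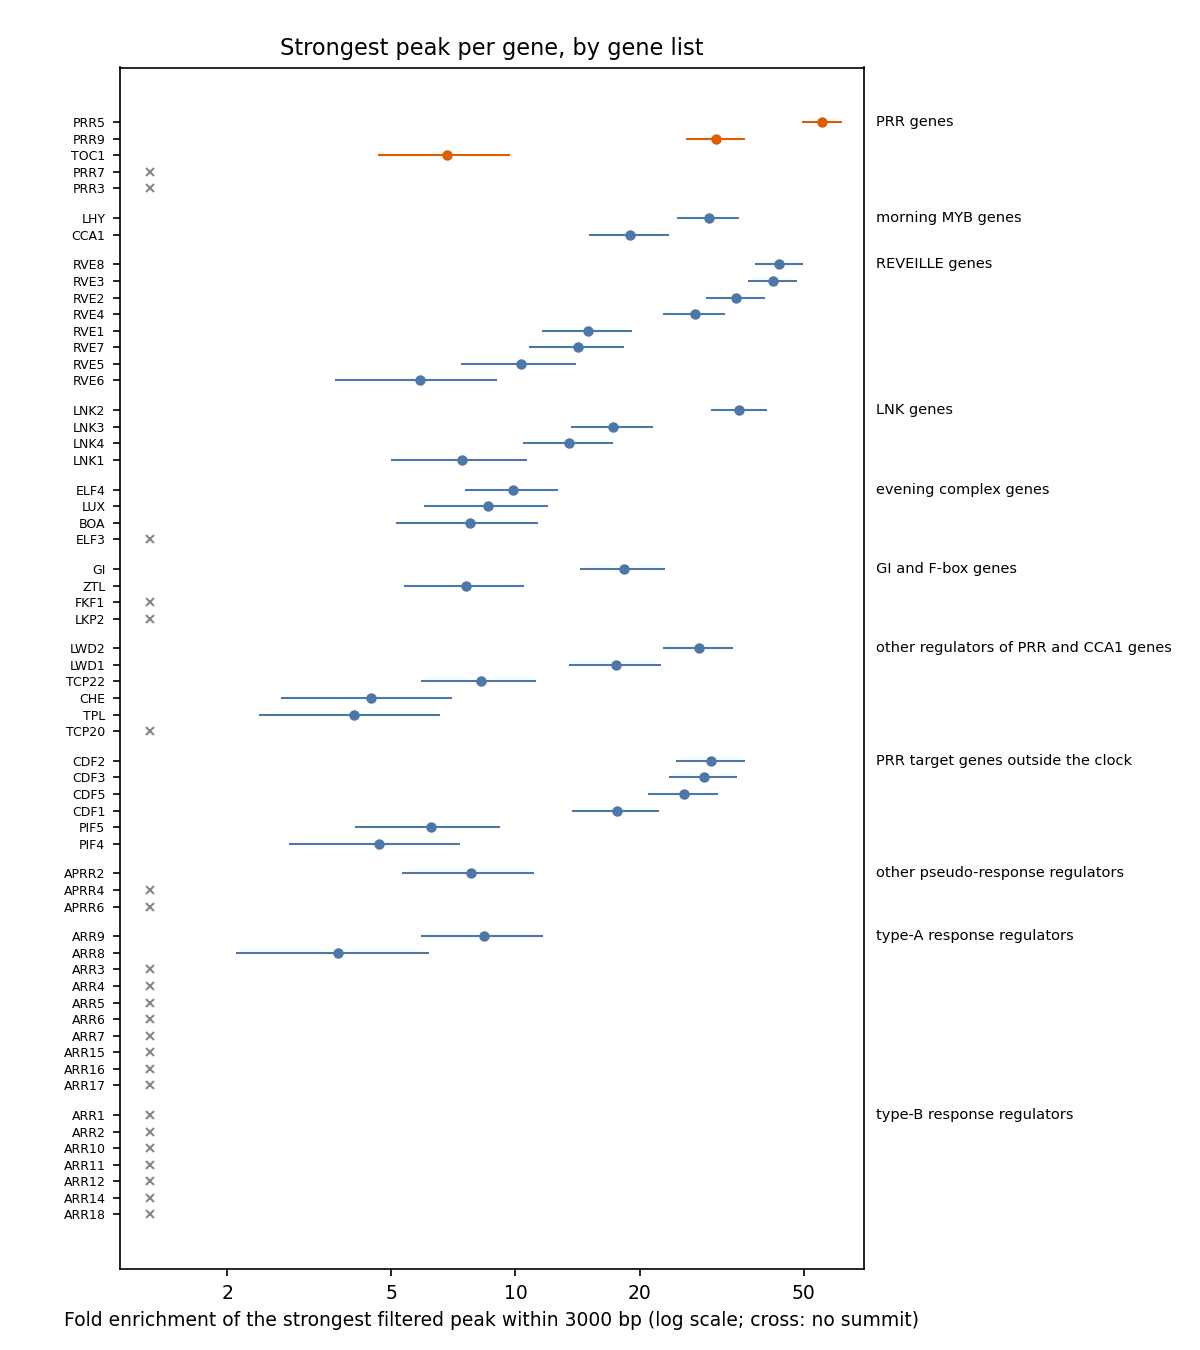
Fold enrichment of the strongest filtered peak within 3000 bp (x axis, log scale) for each PRR gene (orange) and each gene of the comparison lists (blue), with 95% counting intervals; a grey cross at the left marks a gene with no summit. PRR5 at 55.5 lies to the right of every listed gene. Of the 20 response regulators at the bottom, 3 have a summit, beside 19.2% of all genes.

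The gene family was also compared with its relatives outside the clock. Of 20 response regulator genes, 3 had a filtered summit, beside 19.2% of all genes. These were APRR2 (7.79) among 3 other pseudo-response regulators, and ARR9 (8.39) and ARR8 (3.71) among 10 type-A response regulators, which act in cytokinin signalling. The 7 type-B response regulators that were listed, from the DNA-binding class of that pathway, had none. None of these 20 genes reached the fold enrichment of PRR9 or PRR5, while APRR2 and ARR9 were within the counting interval of TOC1.

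In strength of the strongest peak, the most similar of the 24 clock genes with a summit was LHY for PRR9 (30.6 and 29.4, a difference of 0.06 on the log2 scale), LNK1 for TOC1 (6.81 and 7.42, 0.12) and RVE8 for PRR5 (55.5 and 43.6, 0.35). The intervals overlapped in each pair, although narrowly for PRR5 (49.4 to 62.0) and RVE8 (38.0 to 49.8).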

How the data were processed

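Reads were processed by the authors with FastQC, Bowtie, MACS2 and deepTools on the build TAIR10, per the submitters' processing notes, which give no roles, versions or thresholds. The fold enrichment of each peak is a ratio that the authors deposited, beside its −log10 p-value and −log10 q-value. The deposited summit offset was added to the peak start, and positions count from 1. Sequencing depth per sample is not given in the sources used here.

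Fragments at the summit and the background were recovered with Python 3.11.15 and scipy 1.17.1 from the deposited ratio, taken as (fragments + 1) / (background + 1), and the p-value, taken as Poisson. A whole number of fragments up to 4999 matched the deposited −log10 p-value within 0.001 for 3287 of 3287 nuclear 35S:CO peaks and 311 of 312 co-10 peaks. These values depend on that formula, and PCR libraries without molecular identifiers do not hold independent molecules.

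Genes came from a RefSeq table of TAIR10.1, matched by locus for 5 of 5 PRR genes and 54 of 54 listed genes, some under another symbol there (RVE4 as LCL1, RVE3 as ASG4). The table has no strand, so sides of a gene are given by coordinate. Filtered summits lay in protein-coding genes in 38.2% of cases. The share was 51.8% and 50.5% after moving them by -1000 and 1000 bp, and 59.1% and 58.7% by -5000 and 5000 bp. The peaks are thus in register with the table on the scale of 1000 bp, and smaller offsets were not tried. The PRR genes and the comparison lists were chosen with earlier results of these data known. Named genes were the 5 PRR genes, every gene near their summits, up to 4 genes per list by fold enrichment, CCA1 and RVE4, and the clock gene nearest in strength to each PRR gene. Shares of genes are backgrounds without a test.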

Additional observations from a re-analysis of the deposited data

How the results depend on the processing

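No paired analysis was possible because the lists pool the replicates, and for the same reason no replicate could be left out. Motif counts around the summits, with their alternative windows, were planned and not run, as no genome sequence was at hand. Of 49 alternatives, 42 left a count within 1.5 times its value or a percentile within its counting interval. That tolerance is wide for a count of 3, as 2 or 4 PRR genes with a summit passed as unchanged. Within 1000 bp, 2 PRR genes had a filtered summit, PRR9 and TOC1, because the PRR5 summits are farther out. Flanks of 2000 and 5000 bp, any base of the peak and a −log10 q-value of at least 5 or 10 each gave 3. The shares of all genes at these settings were, in that order, 15.3%, 26.5%, 20.3%, 16.2% and 10.7%. Alternatives chosen after seeing the data gave 3 when any base of a peak had to touch the gene and 4, with PRR7 added through the RVE4 peak, within 7000 bp. The co-10 count was 0 in every one of these. The share of all genes with a filtered summit was 11.2% within 1000 bp, 10.7% at a −log10 q-value of at least 10, 7.30% for peaks touching the gene and 32.8% within 7000 bp, which follows from the window or the limit. Ranked by fragments, PRR9 moved from the 98.41 to the 98.88 percentile of nuclear filtered peaks, and PRR5 from 99.84 to 99.97, also when ranked by q-value. Clock genes with a summit ranged from 19 to 24 of 28.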

Other observations

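PRR9 and CCA1 are neighbours on chromosome 2, with 3 protein-coding genes in the 10411 bp between them, and each had a strong peak of its own. The CCA1 summit (19245154 to 19245810, fold enrichment 19.0) was 168 bp from CCA1 and 10244 bp from PRR9. A weaker peak (19243373 to 19243909, 7.72) lay between them, 2024 bp from CCA1. PRR7 and RVE4 are also neighbours, with 2 protein-coding genes in 6617 bp between them, but the only filtered peak from the end of PRR7 to 3000 bp beyond RVE4 had its summit in RVE4.

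The spacing of the strong PRR5 peaks was set beside that of other peaks. Among all 3210 nuclear filtered peaks, 285 adjacent pairs had summits within 1291 bp and 618 within 3000 bp. Of 209 nuclear filtered peaks with a fold enrichment of at least 17.9, 1 adjacent pair had summits within 1291 bp, which is the PRR5 pair that set both limits, and 4 pairs were within 3000 bp. At a fold enrichment of at least 15, 301 peaks gave 3 pairs within 1291 bp and 9 within 3000 bp. The PRR5 pair is included in each of these counts of pairs. Among the 100 strongest nuclear filtered peaks, 31.0% had their summit inside a protein-coding gene, against 38.2% of all 3210. The summit was outside and up to 1000 bp from the nearest such gene in 47.0% against 37.9%, and over 1000 and up to 3000 bp away, like both strong PRR5 summits, in 20.0% against 15.9%.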
